A study of Homo sapiens with 6 samples.

Results

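The AP-1 genes ATF3, FOS, FOSB, FOSL1, FOSL2, JUN, JUNB and JUND, together with the immediate-early response genes EGR1 and IER3, were followed in U87MG cells exposed to the ferroptosis activator RSL3. These 10 genes were taken by symbol from the 65988 Ensembl identifiers of the count tables, with 1 identifier used for each symbol. Whether other identifiers hold reads of the same genes was not tested. All 10 passed the filter on low counts and were among the 16105 genes tested. Wild-type U87MG cells, an established human glioblastoma line, were given either vehicle, the control, or RSL3 at 2 µM, with 3 libraries in each group. Treatment lasted 24 h. RSL3 is an inhibitor of the lipid peroxide reductase GPX4. No transgene or other agent distinguishes the groups, and 1 cell line stands for glioblastoma here. The labels do not say whether the libraries came from separate cultures, so p-values measure the spread between these libraries, which may be technical.

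AP-1 is a family of dimeric transcription factors that bind DNA through a basic region and a leucine zipper. Proteins of the FOS family pair with proteins of the JUN family, JUN proteins also pair with one another, and ATF3 forms dimers with itself and with JUN proteins. FOS, FOSB and EGR1 are classic immediate-early genes, which serum, growth factors or stress switch on within minutes and which then fall back quickly, whereas FOSL1 (Fra-1) and FOSL2 (Fra-2) are induced later and stay longer. EGR1 is a zinc finger factor outside the AP-1 family. IER3 encodes a stress-responsive protein that is not a DNA-binding factor, so the name transcription factor does not cover it. ATF3 is a stress-induced gene that the study, citing earlier work, lists among known ferroptosis regulators that changed in these same samples.

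Total counts ranged from 27813462 to 43306335 per library, with a median of 33575028. A normalized count is the count brought to the average library size with TMM factors, and log2 fold changes are positive where RSL3-treated cells had more. In the bulk RNA, a smaller number of cells of a kind and less RNA per cell cannot be told apart. Of the U87MG markers, VIM, FN1, TNC, CD44 and CHI3L1 had control means between 6097 and 68318 normalized counts, and NES, at 153 ± 4.91 (SD, n = 3), was low. Of these 6 markers, 1 rose (TNC), 4 fell and NES did not pass the test, while 12.9% of all genes tested were called higher and 12.7% lower. Of the markers of other cell types, PTPRC, CD3E, AIF1, PECAM1 and RBFOX3 did not reach the filter, with CD3E at 0 in every library. AIF1 was at 0 in every library too, but it lies on chromosome 6 between IER3 and ATF6B, whose counts were also close to 0. Like those of IER3, its counts are not read as expression here. ALB and EPCAM had group means of at most 26.1 normalized counts. MBP, a myelin gene, rose from 91.0 ± 13.0 to 150 ± 9.07 normalized counts (SD, n = 3; edgeR's adjusted p = 0.00185), and its part in the other results was not tested. The control replicate 3 library stands apart in FOS, FOSB and EGR1, and values that rest on it are given with and without it.

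Of the 10 genes, 2 rose, FOSL1 and ATF3, and 2 fell, FOSL2 and JUND, by edgeR's quasi-likelihood test at an adjusted p under 0.05. Over all genes tested, 12.9% were called higher and 12.7% lower, so 2 of 10 in each direction is not far from the background. The median log2 fold change was 0.11 over the 10 genes and -0.0044 over all genes tested. In 5 of the 10 (FOSL1, ATF3, IER3, FOSL2 and JUND) the RSL3-treated and control libraries did not overlap, against 38.6% of all genes. Without IER3, whose counts cannot be read as expression, 4 of 9 genes did not overlap and the median log2 fold change was 0.03, a reckoning chosen after seeing the data. The remaining 6 genes, FOS, FOSB, JUN, JUNB, EGR1 and IER3, did not pass the test.

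**Figure D1:**
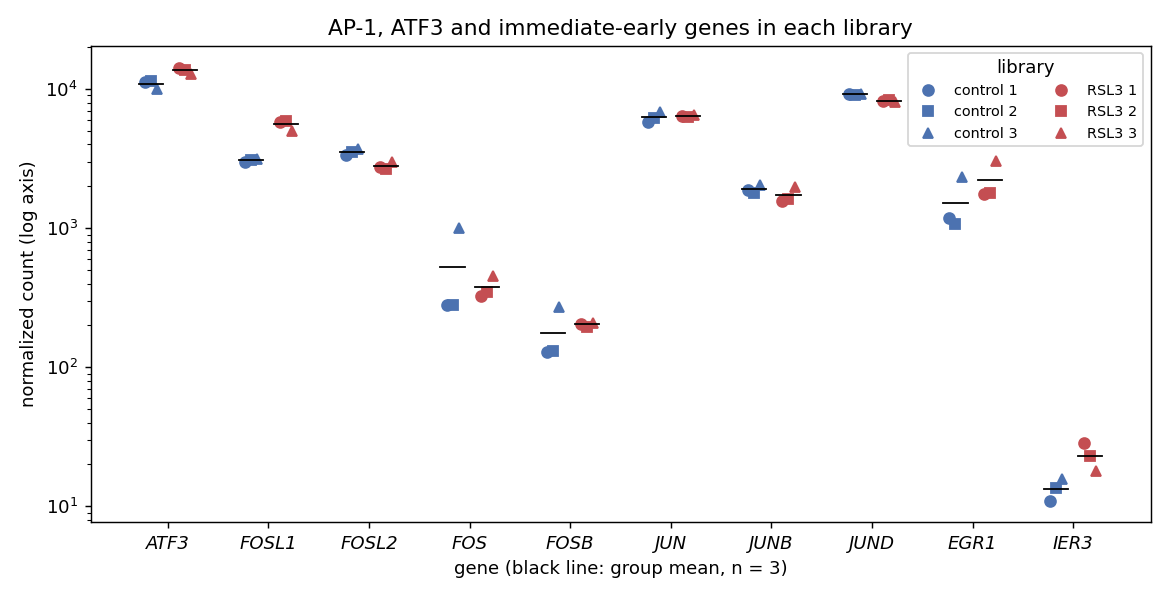
Normalized counts of the 10 genes (log axis) in each of the 6 libraries, control in blue and RSL3 in red, with a marker shape for each replicate number and a black line at the group mean (n = 3). FOSL1 lies between 3011 and 3136 in control libraries and between 5027 and 5913 in RSL3-treated libraries, while the control replicate 3 library (blue triangle) stands apart for FOS, at 1005 against 282 and 279.

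Start regions from RefSeq (GRCh38.p14) were found for 8 of the 10 genes, with no entry for FOSL1 and IER3. The 250 bases before the start site were searched on both strands for TGAGTCA (the AP-1 site), TGACGTCA (the cyclic AMP response element, CRE), TGACATCA (the variant bound by JUN and ATF dimers), TGACGT (the CRE core, which lies within TGACGTCA) and the CArG box of serum response factor. They are shown 5′ to 3′ on the coding strand, with matches in capitals, for the variable genes EGR1 and FOS, for JUN, and for FOSL2 and JUND, which fell. The regions are chr5:138465229-138465478 (EGR1, plus strand), chr14:75278578-75278827 (FOS, plus), chr1:58784048-58784297 (JUN, minus), chr2:28392608-28392857 (FOSL2, plus) and chr19:18281623-18281872 (JUND, minus).
EGR1: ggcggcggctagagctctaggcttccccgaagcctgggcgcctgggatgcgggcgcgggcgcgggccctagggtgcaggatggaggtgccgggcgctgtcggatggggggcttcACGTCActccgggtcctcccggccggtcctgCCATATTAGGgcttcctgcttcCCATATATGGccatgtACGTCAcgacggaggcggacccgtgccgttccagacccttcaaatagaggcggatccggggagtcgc
FOS: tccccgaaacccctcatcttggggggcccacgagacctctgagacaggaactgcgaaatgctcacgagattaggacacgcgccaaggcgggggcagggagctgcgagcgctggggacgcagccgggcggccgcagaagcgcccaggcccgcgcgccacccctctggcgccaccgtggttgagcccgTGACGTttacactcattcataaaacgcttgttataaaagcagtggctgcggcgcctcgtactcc
JUN: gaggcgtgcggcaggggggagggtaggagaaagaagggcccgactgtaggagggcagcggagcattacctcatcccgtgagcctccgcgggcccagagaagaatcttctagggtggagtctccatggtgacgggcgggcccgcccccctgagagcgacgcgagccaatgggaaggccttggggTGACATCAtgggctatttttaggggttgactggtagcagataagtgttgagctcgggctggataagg
FOSL2: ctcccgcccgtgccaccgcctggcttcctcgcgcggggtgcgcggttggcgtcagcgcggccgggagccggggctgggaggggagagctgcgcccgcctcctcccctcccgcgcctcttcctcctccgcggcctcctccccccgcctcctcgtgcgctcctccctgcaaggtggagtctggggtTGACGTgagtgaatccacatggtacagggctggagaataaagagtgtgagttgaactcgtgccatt
JUND: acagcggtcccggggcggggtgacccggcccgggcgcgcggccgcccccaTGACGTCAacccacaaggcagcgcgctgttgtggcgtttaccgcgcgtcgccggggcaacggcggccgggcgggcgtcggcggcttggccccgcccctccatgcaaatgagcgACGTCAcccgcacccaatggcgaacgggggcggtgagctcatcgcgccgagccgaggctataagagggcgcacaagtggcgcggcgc

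EGR1 was the only one of the 8 genes with a CArG box in this window, and it had 2, at 105 to 96 and 83 to 74 bases before the start site. A CArG box was found in 1.16% of all 35116 start regions of this length. The CRE core TGACGT was found in FOS, FOSB, FOSL2, JUND and EGR1, against 7.10% of all start regions, and the full TGACGTCA in JUND alone, against 1.65%. The variant TGACATCA was found in JUN, 67 to 60 bases before the start site, and in the first of the start regions listed for ATF3, against 2.37%. No window held TGAGTCA, which 4.20% of all start regions held, and JUNB had none of these motifs. A match describes letters in this window, and these counts do not measure binding. Bases farther from the start site were not searched, so the lack of a motif holds for this window only.

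FOSL1 (ENSG00000175592, minus strand of chromosome 11 of GRCh38, 65892049 to 65900573) had the smallest p-value of the 10 genes. Its product, Fra-1, is a FOS family protein without the activation domain of FOS and is associated with invasive, mesenchymal tumour cells. Normalized counts were 3011, 3106 and 3136 in control replicates 1, 2 and 3 and 5799, 5913 and 5027 in RSL3 replicates 1, 2 and 3. Every RSL3-treated library was above every control library, and the lowest of them was RSL3 replicate 3. The means were 3084 ± 65.5 and 5580 ± 482 (SD, n = 3), a log2 fold change of 0.86 (standard error, SE, 0.05) or 1.81-fold (edgeR's adjusted p = 3.99e-11). By p-value FOSL1 was number 15 of the 16105 genes tested, and by fold change it was number 146 of the 2082 genes called higher. With single libraries left out its log2 fold change stayed between 0.81 and 0.93.

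FOSL2 (ENSG00000075426, plus strand of chromosome 2, 28392448 to 28417317), the closest relative of FOSL1 in the family, went the other way. It was at 3385, 3553 and 3700 normalized counts in control replicates 1, 2 and 3 and at 2774, 2666 and 2995 in RSL3 replicates 1, 2 and 3. The groups did not overlap, and the highest value of each group was in its replicate 3. The means of 3546 ± 158 and 2812 ± 168 (SD, n = 3) gave a log2 fold change of -0.33 (SE 0.04, edgeR's adjusted p = 6.04e-06). FOSL1 and FOSL2 have no exon base in common with another annotated gene.

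FOS (ENSG00000170345, plus strand of chromosome 14, 75278826 to 75282230), the founding member of the family, had 282, 279 and 1005 normalized counts in control replicates 1, 2 and 3 and 324, 347 and 454 in RSL3 replicates 1, 2 and 3. The control replicate 3 library was 3.58 times the mean of the other control libraries and above every RSL3-treated library, whereas control replicates 1 and 2 were below every RSL3-treated library. The log2 fold change was -0.48 (SE 0.31, edgeR's adjusted p = 0.283). Without control replicate 3 the sign turned, to 0.42 (SE 0.13, edgeR's adjusted p = 0.0203), and without both libraries numbered 3 it was 0.26 (adjusted p = 0.126), a fit chosen after seeing the data. With no filter on low counts FOS was called lower at the same -0.48, with a smaller SE of 0.09 (edgeR's adjusted p = 2.14e-06). That call thus rests on the smaller SE, not on a different fold change.

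FOSB (ENSG00000125740, plus strand of chromosome 19, 45467995 to 45475179), which is usually induced together with FOS, showed the same outlying library. Its normalized counts were 128, 132 and 269 in control replicates 1, 2 and 3 and 205, 196 and 209 in RSL3 replicates 1, 2 and 3. The RSL3-treated libraries lay close together, between the lower pair of control libraries and control replicate 3. The log2 fold change was 0.20 (SE 0.20, edgeR's adjusted p = 0.522) with all libraries, 0.65 (edgeR's adjusted p = 0.00211) without control replicate 3 and -0.0070 (edgeR's adjusted p = 0.988) without control replicate 1.

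Levels of different genes can be compared only per length, so CPM, the counts scaled to library size, were divided by the union exon length in kilobases (CPM per kb). On this scale the summed level of the 4 FOS family genes was 63.9, 66.0 and 74.5 CPM per kb in control replicates 1, 2 and 3 and 105, 107 and 95.6 in RSL3 replicates 1, 2 and 3. FOSL1 made up 73.2%, 73.0% and 65.4% of this sum in the control libraries and 85.4%, 85.9% and 81.7% in the RSL3-treated libraries. Its mean share was thus 13.8 percentage points higher in RSL3-treated cells (two-sided exact permutation test over the libraries, p = 0.1, the smallest p that 3 against 3 libraries allow). The share of FOSL2 was 21.3% ± 0.900 in control and 11.3% ± 1.38 in RSL3-treated cells (SD, n = 3; exact permutation p = 0.1). FOS held 6.79% ± 4.87 and 3.39% ± 0.850 of the sum (SD, n = 3; exact permutation p = 0.3), its control value resting on control replicate 3, and FOSB held 1.34% ± 0.491 and 1.05% ± 0.0942 (SD, n = 3; exact permutation p = 0.5). These p-values were not adjusted over the shares. Per length, FOSL1 was the largest part of the FOS family sum in every library. On counts without length, FOSL2 was the largest part in every control library, at 49.7%, 50.3% and 45.6% against 44.2%, 43.9% and 38.7% for FOSL1, and FOSL1 in every RSL3-treated library.

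**Figure D2:**
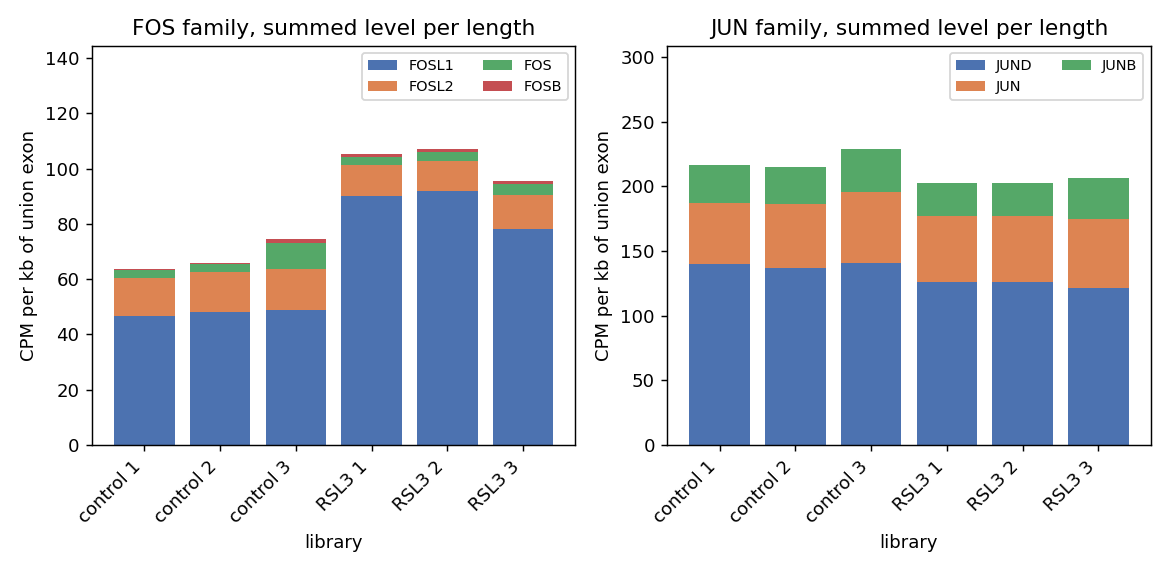
Stacked levels of the FOS family genes (left) and the JUN family genes (right) in each of the 6 libraries, in CPM per kb of union exon, with 1 colour for each gene. The FOS family sum runs from 63.9 to 74.5 in control libraries and from 95.6 to 107 in RSL3-treated libraries, and FOSL1 (blue) is the largest part of each bar.

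JUN (ENSG00000177606, minus strand of chromosome 1, 58776845 to 58784048), the partner that gives AP-1 most of its activating strength, had normalized counts of 5835, 6146 and 6833 in control replicates 1, 2 and 3 and 6378, 6267 and 6503 in RSL3 replicates 1, 2 and 3. All RSL3-treated values lay within the range of the control libraries, with a log2 fold change of 0.03 (SE 0.04, edgeR's adjusted p = 0.729). This range rests on control replicate 3, as control replicates 1 and 2 lay below every RSL3-treated library. Without control replicate 3 the log2 fold change of JUN was 0.096 (edgeR's adjusted p = 0.0610). JUND (ENSG00000130522, minus strand of chromosome 19, 18279694 to 18281622), a member expressed steadily in most cells, was at 9191, 8997 and 9261 in the control replicates and at 8270, 8298 and 8016 in the RSL3 replicates. This decrease was small but free of overlap, with a log2 fold change of -0.16 (SE 0.03, edgeR's adjusted p = 0.000394). JUNB (ENSG00000171223, plus strand of chromosome 19, 12791486 to 12793315), an AP-1 member that can hold back JUN, had 1868, 1793 and 2034 normalized counts in control replicates 1, 2 and 3 and 1566, 1623 and 1985 in RSL3 replicates 1, 2 and 3. RSL3 replicate 3 reached into the control range, and the log2 fold change was -0.14 (SE 0.07, edgeR's adjusted p = 0.139). Without RSL3 replicate 3 it was -0.25 (edgeR's adjusted p = 0.00151). JUNB shares 14.2% of its exon bases with HOOK2, and the counting ignored strand, so reads there cannot be assigned to either gene.

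The summed level of the 3 JUN family genes was 217, 215 and 228 CPM per kb in control replicates 1, 2 and 3 and 202, 203 and 206 in RSL3 replicates 1, 2 and 3. JUND held the largest share in every library, 63.2% ± 1.47 in control and 61.1% ± 1.77 in RSL3-treated cells (SD, n = 3; exact permutation p = 0.3). The share of JUN was 23.0% ± 1.21 and 25.3% ± 0.290 (SD, n = 3), a difference of 2.31 percentage points (exact permutation p = 0.1).

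ATF3 (ENSG00000162772, plus strand of chromosome 1, 212565334 to 212620777) was abundant in control cells and higher in RSL3-treated cells. Normalized counts were 11155, 11370 and 9949 in control replicates 1, 2 and 3 and 14271, 13805 and 12772 in RSL3 replicates 1, 2 and 3. The groups did not overlap, and replicate 3 was the lowest library of each group. The means were 10825 ± 766 and 13616 ± 767 (SD, n = 3), a log2 fold change of 0.33 (SE 0.04, edgeR's adjusted p = 6.74e-06) or 1.26-fold. By fold change ATF3 was number 630 of the genes called higher. The study named ATF3 among known regulators that changed in these same samples, so its call is not independent evidence.

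EGR1 (ENSG00000120738, plus strand of chromosome 5, 138465479 to 138469303), a target of serum response factor, had normalized counts of 1181, 1075 and 2316 in control replicates 1, 2 and 3 and 1774, 1804 and 3045 in RSL3 replicates 1, 2 and 3. Replicate 3 was the highest library of each group, and control replicate 3 lay above RSL3 replicates 1 and 2. EGR1 is the gene with the paired CArG boxes in the start region printed above. The log2 fold change of 0.53 (SE 0.20) did not pass the test (edgeR's adjusted p = 0.0553). Each RSL3-treated library was above the control library of the same number. With the replicate number as a block in the fit the log2 fold change was 0.56 (edgeR's adjusted p = 6.61e-08), but the labels do not say that the numbers are pairs. Without control replicate 3 it was 0.97 (edgeR's adjusted p = 6.01e-05), and without RSL3 replicate 3 it was 0.23 (edgeR's adjusted p = 0.404). Leaving out RSL3 replicate 1 or 2 gave 0.66 in both cases (edgeR's adjusted p = 0.0277 and 0.0357), and leaving out control replicate 1 or 2 gave 0.36 in both cases (edgeR's adjusted p = 0.290 and 0.216). Without both libraries numbered 3 it was 0.66 (edgeR's adjusted p = 1.09e-07).

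**Figure D3:**
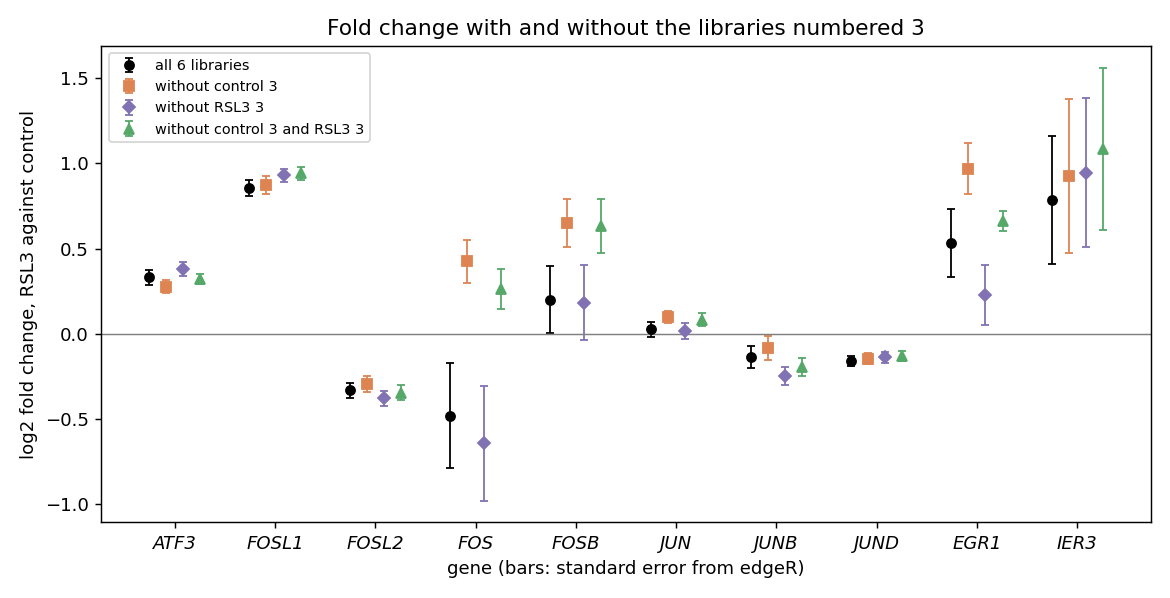
Log2 fold change of the 10 genes between RSL3-treated and control cells, with its standard error from edgeR, from all 6 libraries (black), without control replicate 3 (orange), without RSL3 replicate 3 (purple) and without both (green). FOSL1, ATF3, FOSL2 and JUND keep their place, while FOS runs from -0.64 without RSL3 replicate 3 to 0.42 without control replicate 3.

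The spread of FOS, FOSB and EGR1 between control libraries was large beside that of other genes. Among 11464 genes with a mean normalized count of at least 100, the coefficient of variation over the control libraries had a median of 4.08%. It was 80.1% for FOS, 45.6% for FOSB and 45.1% for EGR1, which made them numbers 2, 4 and 5 of these genes in order of variation. FOSL1, at 2.12%, was steadier than the median gene. Over the RSL3-treated libraries EGR1 was again variable, at 32.8% and number 24, FOS was at 18.5%, and FOSB was at 3.11% against a median of 3.90%. The library with the high values was control replicate 3, in which 9 of the 10 genes, all but ATF3, had their highest control value (8 of 9 without IER3). Its excess differed in size. It was 3.58, 2.07 and 2.05 times the mean of control replicates 1 and 2 for FOS, FOSB and EGR1. For JUND, FOSL1, FOSL2, JUNB and JUN it was only 1.02 to 1.14 times that mean. Over all genes tested, control replicate 3 was the highest control library for 33.6%. In RSL3 replicate 3, 6 of the 10 genes had their highest RSL3-treated value, against 34.5% of all genes.

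Other immediate-early genes, a list of 24 of which 23 were tested, were examined for the same feature. In control replicate 3, 15 of the 23 had their highest control value, against 33.6% of all genes. In RSL3 replicate 3, 9 of the 23 (39.1%) had their highest RSL3-treated value, close to the 34.5% of all genes. Highest in both libraries numbered 3 were 7 of the 23, against 14.0% of all genes. NR4A1, an orphan nuclear receptor gene induced with EGR1, was among them and was named after its values were seen. It had 145, 137 and 217 normalized counts in control replicates 1, 2 and 3 and 136, 124 and 245 in RSL3 replicates 1, 2 and 3. No handling time or batch is given in the labels, and the share of counts from mitochondrial genes was 1.18%, 1.26% and 0.918% in control replicates 1, 2 and 3 and 0.840%, 0.868% and 0.912% in RSL3 replicates 1, 2 and 3. The part of such factors in the replicate 3 values was not tested.

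The values of IER3 (ENSG00000137331, minus strand of chromosome 6, 30743199 to 30744548) cannot be read as expression of the gene. Raw counts were 14, 11 and 17 in control replicates 1, 2 and 3 and 25, 22 and 18 in RSL3 replicates 1, 2 and 3, a log2 fold change of 0.79 (SE 0.38, edgeR's adjusted p = 0.142). Genes around it that every cell uses were also close to 0. TUBB, which encodes a beta-tubulin, had at most 3 raw counts in any library, and FLOT1, the flotillin gene next to IER3, had at most 13. Of the 16 protein-coding genes within 200 kb of IER3, itself included, 13 had at most 12 raw counts in every library. ATF6B, a stress factor gene elsewhere on chromosome 6, had at most 4. IER3 also shares 38.9% of its exon bases with HCG20 and IER3-AS1.

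Ordered by level per length, the genes ran from JUND (139 CPM per kb in control cells) through ATF3 (79.3), JUN (50.7), FOSL1 (47.9), JUNB (30.4), FOSL2 (14.5), EGR1 (14.2) and FOS (4.80) to FOSB (0.930). The control libraries of JUN and FOSL1 overlapped, as did those of FOSL2 and EGR1, so the order within each pair is not set. In RSL3-treated cells FOSL1, at 86.6 ± 7.49 CPM per kb (SD, n = 3), stood above JUN, at 51.6 ± 0.952 (SD, n = 3), and below ATF3, at 99.8 ± 5.62 (SD, n = 3), with no overlap between libraries. The order depends on the length used for ATF3, whose union of exons is 3998 bases and whose longest transcript is 2103 bases. Per length of the longest transcript ATF3 was at 151 CPM per kb in control cells, above JUND at 139.

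The genes whose pattern over the 6 libraries was most like that of FOSL1, by Pearson's r of log2 CPM among 11463 genes, were PAX8 (r = 0.9997), EREG (r = 0.9996) and ERC1 (r = 0.9994). This is a description over 6 libraries that fall into 2 groups. PAX8, a developmental transcription factor gene, had a mean of 442 ± 14.1 normalized counts in control and 847 ± 86.7 in RSL3-treated cells (SD, n = 3). It has 22.4% of its exon bases in common with PAX8-AS1, and the counting ignored strand. PAX8-AS1 was higher too, at a log2 fold change of 0.93 against 0.94 for PAX8 (edgeR's adjusted p = 3.04e-10 and 1.42e-08). The part of the shared bases in the PAX8 values was not tested. EREG, which encodes the EGFR ligand epiregulin, was at 10899 ± 160 and 16523 ± 1115 normalized counts (SD, n = 3). ERC1, a scaffold protein gene, was at 4195 ± 10.8 and 4647 ± 75.1 (SD, n = 3). As in FOSL1, the lowest RSL3-treated value of PAX8, EREG and ERC1 was in RSL3 replicate 3.

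Apart from the genes above, genes whose proteins can pair with AP-1 members were listed, and the 7 of them described here did not pass the test. Their log2 fold changes lay between -0.10 and 0.06, at -0.06 for ATF7, -0.03 for ATF2, -0.10 for MAF, 0.01 for NFE2L2 (NRF2), 0.05 for BATF3, 0.06 for BATF2 and -0.01 for JDP2. Other genes overlap 42.8% of the exon bases of ATF7 and 38.4% of those of NFE2L2.

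Of the 23 other immediate-early genes tested, 6 rose, 3 fell and 14 did not pass the test (all genes: 12.9% higher, 12.7% lower). The median log2 fold change of the list was 0.07. IER5L fell from 1190 ± 46.7 to 730 ± 40.9 normalized counts (SD, n = 3; log2 fold change -0.71, edgeR's adjusted p = 1.29e-08), with 41.8% of its exon bases shared with IER5L-AS1. NFKBIZ, a regulator of NF-kB target genes, rose from 6494 ± 995 to 9080 ± 735 (SD, n = 3; log2 fold change 0.48, edgeR's adjusted p = 1.90e-05). DUSP1, a phosphatase that switches off MAP kinases, rose from 6465 ± 562 to 8230 ± 580 (SD, n = 3; log2 fold change 0.35, edgeR's adjusted p = 2.01e-05).

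Of the 15 ATF, CREB and C/EBP factors tested (17 listed), 4 rose, 2 fell and 9 did not pass the test (all genes: 12.9% higher, 12.7% lower). The median log2 fold change of the list was 0.04. ATF5, a factor of the integrated stress response, rose from 4681 ± 148 to 6052 ± 147 normalized counts (SD, n = 3; log2 fold change 0.37, edgeR's adjusted p = 4.81e-08), with 22.1% of its exon bases shared with other genes. CREB3L1, a membrane-bound factor of the endoplasmic reticulum, fell from 1862 ± 86.1 to 1467 ± 53.6 (SD, n = 3; log2 fold change -0.35, edgeR's adjusted p = 9.72e-06). CREM, a cyclic AMP responsive factor, rose from 980 ± 50.0 to 1202 ± 11.1 (SD, n = 3; log2 fold change 0.29, edgeR's adjusted p = 0.000306).

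Among the 21 upstream kinases and serum response factor genes, 5 rose, 2 fell and 14 did not pass the test (all genes: 12.9% higher, 12.7% lower). The median log2 fold change of the list was 0.05. MAP2K1 (MEK1), a MAP kinase kinase, had a log2 fold change of 0.21 (edgeR's adjusted p = 0.000231), with 20.5% of its exon bases shared with other genes. SRF, which binds the CArG box, had a log2 fold change of 0.21 as well (edgeR's adjusted p = 0.00166), with 1238 ± 41.7 normalized counts in control and 1439 ± 13.1 in RSL3-treated cells (SD, n = 3).

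AP-1 target genes, a list of 22 of which 20 were tested, moved in both directions, with 10 higher, 4 lower and 6 not passing the test, and a median log2 fold change of 0.09. HMGA1, a chromatin protein gene, rose from 13650 ± 281 to 20400 ± 893 normalized counts (SD, n = 3; log2 fold change 0.58, edgeR's adjusted p = 4.64e-11). CXCL8, which encodes the chemokine interleukin-8, rose from 26132 ± 1197 to 36792 ± 1356 (SD, n = 3; log2 fold change 0.49, edgeR's adjusted p = 6.64e-10). CD44, the hyaluronan receptor, fell from 24702 ± 570 to 18886 ± 861 (SD, n = 3; log2 fold change -0.39, edgeR's adjusted p = 1.20e-08). The largest change of the list, in a gene named after its values were seen, was in the cytokine gene IL11, at 300 ± 47.0 and 680 ± 51.0 normalized counts (SD, n = 3; log2 fold change 1.16, edgeR's adjusted p = 1.42e-08). Of all genes tested, 25.6% were called in either direction.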

How the data were processed

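Poly(A) RNA of U87MG cells was sequenced in 6 libraries. Read trimming by the authors used Trimmomatic 0.36 followed by Fastp, alignment used HISAT2 on GRCh38.p4, and HTSeq 0.6.1p1 counted reads on exons, ignoring strand. The deposited values are raw read counts per Ensembl identifier. The annotation release is not given in the sources used here. Symbols came from a table of gene names, which matched 56434 of 65988 identifiers. Positions, lengths, GC content and exon overlaps came from GENCODE v44 on GRCh38; exons may differ in the annotation that was counted.

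Groups were taken from the sample labels. Low genes were removed with filterByExpr (minimum count 10) in edgeR 4.0.16 (R 4.3.3), and the rest were scaled by TMM and compared by the quasi-likelihood F test without covariates, with Benjamini-Hochberg adjustment over all genes tested and a threshold of 0.05. Shares within a family were compared by a two-sided exact permutation test. On simulated data for RSL3 against control, with 15831 genes tested, 83.8% of the changed genes were recovered and 0.0576% of the unchanged genes were called. The planted changes were larger than the log2 fold change of any member in the main fit. The spread put in followed the trend over all genes, not that of single genes such as FOS. These shares therefore do not measure how often changes as small as those of the members would be found. The members and gene lists were chosen with earlier results of these data known. The genes named were all members, in each list the 3 with the smallest p (all where 8 or fewer were tested), and the 3 genes most correlated with the member of smallest p among genes with a mean normalized count of at least 100. Some genes that this rule names are not reported here. Alternatives were other scalings and filters, DESeq2 1.42.0 with 0, 1 or 2 surrogate variables (sva 3.50.0), edgeR with 1, a replicate block, GC content offsets, thinning, other lengths, a threshold of 0.01 and each library left out.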

Additional observations from a re-analysis of the deposited data

How the results depend on the processing

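The calls of FOSL1, ATF3, FOSL2 and JUND kept their direction and their side of the threshold in all 19 alternatives each, with log2 fold changes of 0.81 to 0.94, 0.28 to 0.38, -0.38 to -0.30 and -0.21 to -0.13 and edgeR or DESeq2 adjusted p at or below 0.00550. EGR1 passed the threshold in 9 of 19 alternatives, at 0.23 to 0.97 and edgeR or DESeq2 adjusted p between 1.44e-27 and 0.441, and JUNB in 6 of 19, at -0.25 to -0.07. The smallest of these for EGR1, 1.44e-27, came from the fit with no filter, where its SE was 0.05 against 0.20 in the main fit. FOS passed in 2 of 19 alternatives, in opposite directions, at -0.48 with no filter (edgeR's adjusted p = 2.14e-06) and at 0.42 without control replicate 3. With no filter the SE of FOS was 0.09 against 0.31 in the main fit, at the same fold change. FOS turned to 0.42 without control replicate 3 and 0.26 without both libraries numbered 3, FOSB to -0.0070 and JUN to -0.025 without control replicate 1. With single libraries left out FOS ran from -0.80 to 0.42, FOSB from -0.0070 to 0.65 and JUN from -0.025 to 0.096. The number of members called higher, 2, was 5 without control replicate 3 and 4 without both libraries numbered 3 (chosen after seeing the data), and the number called lower, 2, was 4 with no filter on low counts. With single libraries left out, these numbers ran from 2 to 5 and from 2 to 3. Genes called in all, 4123, were 2268 in DESeq2 with 2 surrogate variables, 2691 at a threshold of 0.01 and 3083 to 3924 with single libraries left out. The gain of FOSL1 in its family share was 19.9 percentage points on counts without length and 11.2 to 15.1 with single libraries left out. For JUN it was 1.69 to 2.89 with single libraries left out. The cause of these differences was not tested.

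Same-numbered libraries deviated together with Pearson's r of 0.061, 0.113 and 0.191 over 11464 genes for replicates 1, 2 and 3. Each library correlated best with its own number, but these values are low and the labels give no shared origin. The numbers were therefore not taken as pairs in the main fit, and whether same-numbered libraries belong together was not tested. With the replicate block, 3 members were called higher and 3 lower, with EGR1 at 0.56 (edgeR's adjusted p = 6.61e-08) and JUNB at -0.14 (edgeR's adjusted p = 0.0180) added, and 4633 genes in all. With 3 libraries per group, the FOS and FOSB values rest on whether control replicate 3 is included, and the EGR1 value moves with either library numbered 3.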
